A study of Mus musculus with 8 samples.

Results

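The light chain variable (V) segments are the gene segments that code for most of the variable domain of the immunoglobulin light chain. Their rows were chosen by name, as every row of the count and TPM tables whose gene name begins with Igkv or Iglv and a digit, which gave 163 of 53242 genes. Of these, 160 were kappa segments on chromosome 6 and 3 were lambda segments on chromosome 16. In the GENCODE annotation of GRCm39, 103 of them are V genes (100 kappa and 3 lambda) and 60, all kappa, are V pseudogenes.

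A light chain gene is made during B cell development when the RAG1 and RAG2 recombinase joins a V segment to a joining (J) segment, which is then spliced to a constant exon. A mouse B cell expresses either kappa or lambda, and usually a single V segment, so the V counts of a B cell population describe which segments its cells use and how much light chain mRNA they hold. The promoter of a V segment characteristically carries an octamer motif that binds the transcription factors OCT1 and OCT2 (genes Pou2f1 and Pou2f2) with their B cell coactivator OCA-B (Pou2af1). After the V exon comes the recombination signal sequence, a heptamer and a nonamer held apart by a spacer of 12 bases for kappa V segments, at which the recombinase cuts.

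The data came from splenic B cells of C57BL/6 mice, 8 to 12 weeks old, activated for 24 h by CD40LB feeder cells. These feeder cells express CD40 ligand and hBAFF, and the medium held 40 ng/ml of IL4. Control mice were Eif4a1+/+ CD23-cre and 4A1 KO mice were Eif4a1fl/fl CD23-cre, so both genotypes carried the Cre transgene, which is driven by the promoter of Cd23 (Fcer2a) and acts in splenic B cells that have already joined their light chain genes. In 4A1 KO mice it removes exons 2 to 4 of Eif4a1, which encodes the RNA helicase of the translation initiation complex. RNA was sequenced from 4 mice per genotype, numbered 1 to 4, and same-numbered libraries shared batch and sex: 1 and 2 were batch A, 3 and 4 were batch B, 1 and 3 were males, and 2 and 4 were females. The study left replicate 1 of both genotypes out of differential expression because of reduced viability, and the gene by gene test here therefore used the other 6 libraries (n = 3 per genotype), while single values per library were compared over all 8.

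The libraries held 31727557 to 43210858 counts on genes, the fewest in 4A1 KO 1. Levels are given as CPM, counts scaled to a common library size after TMM normalization. Eif4a1 was at 748 to 939 CPM in the 4 control libraries and at 556 to 689 CPM in the 4 4A1 KO libraries, a log2 fold change of −0.44 (SE 0.05). B cell marker genes summed to 6634 to 7762 CPM in control and 5272 to 5796 CPM in 4A1 KO libraries, with 4 of 9 decreased, where 13.7% of all genes tested decreased and 11.6% increased. T cell markers summed to at most 1.11 CPM, with Cd3g, Trbc1 and Trbc2 at 0, and the 5 erythroid markers to at most 0.15 CPM. Feeder cells had been removed with an H-2Kd antibody and magnetic beads before RNA isolation, and fibroblast markers summed to 9.23 to 42.8 CPM in control and 14.3 to 27.0 CPM in 4A1 KO libraries, with 1 of 5 increased and 1 decreased. Of the other marker lists tested, 1 of 3 follicular B cell genes decreased, 1 of 4 myeloid genes increased, and 0 of 3 B-1, 0 of 1 immature B cell and 0 of 1 T cell genes were called. In bulk RNA, fewer cells that use a segment and less of its RNA per cell cannot be told apart.

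The sequences that mark a light chain V segment were read from GRCm39 for the segments described below. The octamer was sought as ATGCAAAT and ATTTGCAT, its form on the other strand, in the 250 bases before each gene start. It was found before 75 of 103 V genes (72.8%) and 21 of 60 V pseudogenes (35.0%), against 123 of 6568 other genes of these chromosomes (1.87%). All 96 of those segments held it as ATTTGCAT in the direction of transcription, the form usual for light chains, and 2 of them held the other form as well. The windows of 30 bases around the octamer, in capitals, are given for the 3 lambda segments, for 3 of the most used kappa segments, and for the 2 decreased segments that hold it.
Iglv1, chr16:18904297-18904326, minus strand: aaatgaaagtaATTTGCATtactagcccag
Iglv2, chr16:19079681-19079710, minus strand: aaatgaaagtaATTTGCATtactagcccag
Iglv3, chr16:19060508-19060537, minus strand: tggccaataaaATTTGCATgaagggccctc
Igkv19-93, chr6:68713828-68713857, minus strand: agatgaagctgATTTGCATgtgctgagatc
Igkv1-135, chr6:67586612-67586641, plus strand: cagaccagaacATTTGCATattgttccctg
Igkv14-111, chr6:68233286-68233315, plus strand: ggttcccaatgATTTGCATgctctcacttc
Igkv13-84, chr6:68916486-68916515, plus strand: aggcctagttgATTTGCATgtagacattga
Igkv4-55, chr6:69584874-69584903, minus strand: tctatcttgctATTTGCATattacattttc
The windows of Iglv1 and Iglv2 were identical, and that of Iglv3 was another. Between the octamer and the gene start lay 57 bases in Iglv1, 82 in Iglv2, 78 in Iglv3 and 66 to 81 in the 5 kappa segments. No exact octamer lay in the window of Igkv6-17, Igkv6-32, Igkv1-117, Igkv8-30 or Igkv6-13, which says only that these letters are not in those 250 bases.

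The recombination signal that follows the V exon is shown for the 4 decreased segments and for Igkv6-17 and Igkv6-32, which resemble some of them. The heptamer and the nonamer are in capitals, and their usual letters are CACAGTG and ACAAAAACC.
Igkv8-30, chr6:70094017-70094044, minus strand: CACAGTGcttcagcctcctACACAAACC
Igkv6-17, chr6:70348978-70349005, plus strand: CACAGTGcttcagcctcctACACAAACC
Igkv6-32, chr6:70050980-70051007, minus strand: CACAGTGcttcagcctcctACACAAACC
Igkv6-13, chr6:70434457-70434484, minus strand: CACAGTGcttcagcctcctACATAAGCC
Igkv13-84, chr6:68917052-68917079, plus strand: CACAGTGatacaagccatgACATAAACC
Igkv4-55, chr6:69584231-69584258, minus strand: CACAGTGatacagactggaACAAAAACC
The first 3 of these signals were letter for letter the same, although Igkv8-30 belongs to another family than Igkv6-17 and Igkv6-32, and the same signal followed 4 more members, Igkv8-28, Igkv8-19, Igkv8-16 and Igkv7-33. Igkv6-13 had their heptamer and spacer and another nonamer. The usual heptamer followed 87 of 103 V genes and 22 of 60 V pseudogenes. The 3 lambda segments lacked it, with CACAATG in Iglv1 and Iglv2 and CACAGTA in Iglv3.

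Light chain V rows held 12735 to 19246 counts per library, or 0.0368% to 0.0477% of all counts. Kappa V genes took 83.6% of them, the 3 lambda V genes 16.0% and the 60 pseudogenes 0.356%. Among all 163 rows, 44 had no count in any of the 8 libraries, of which 42 were pseudogenes and 2 were the V genes Igkv1-131 and Igkv1-35. The filter on low counts kept 90 rows, made up of 85 of 100 kappa V genes, all 3 lambda V genes and 2 pseudogenes, Igkv4-77 and Igkv4-73. None of the 73 rows left out had more than 68 counts over the 8 libraries.

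Usage was led by Iglv1, a lambda segment. It took 11.0, 11.6, 9.89 and 11.2% of the light chain V counts in control libraries 1 to 4 and 11.1, 12.5, 13.8 and 10.9% in 4A1 KO libraries 1 to 4. In each of the 8 libraries this was above every other segment, since the next, Igkv19-93, stood at 4.29% ± 0.354 (SD over 8 libraries) and at most at 4.64%. After it came Igkv6-17 at 4.22% ± 0.248, Igkv1-135 at 3.76% ± 0.240, Igkv14-111 at 3.12% ± 0.215 and Igkv6-32 at 2.65% ± 0.231. The ranges of neighbours in this order overlapped from Igkv19-93 down to the tenth segment, so the order among them was within the spread between libraries.

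The other segments of the first 10 were Igkv9-120, Igkv1-117, Igkv5-39 and Igkv3-2, with mean shares from 2.53% to 2.45%. Igkv5-39 varied most among the kappa segments of the first 10, with an SD of 0.678 percentage points. It stood at 9.26, 9.62, 10.2 and 8.81 CPM in control and at 8.13, 9.86, 15.5 and 10.1 CPM in 4A1 KO libraries, and the high value was that of 4A1 KO 3 alone. The 5 most used segments together held 26.9% of the counts, the first 15 held 51.3% and the first 50 held 90.3%.

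**Figure D1:**
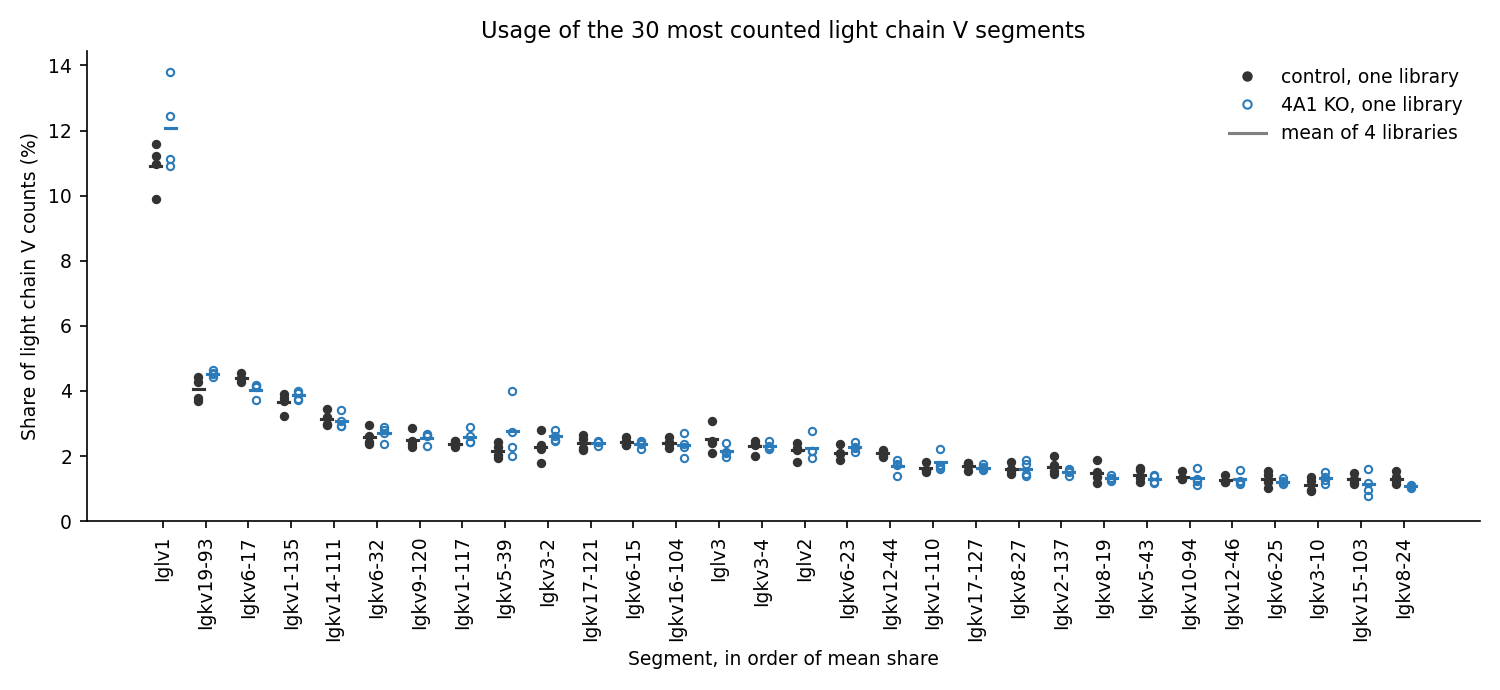
Share of light chain V counts (%, vertical axis) of the 30 segments with the highest mean share (horizontal axis). Filled points are control and open points 4A1 KO libraries, and lines are means of 4 libraries; Iglv1 lies between 9.89% and 13.8% in every library, above all other segments.

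Libraries resembled each other closely in usage. Across the 90 segments tested, log2 shares correlated between libraries of the same genotype with Pearson's r of 0.964 to 0.978, between same-numbered libraries of the 2 genotypes with 0.967 to 0.975, and between other pairs of libraries with 0.957 to 0.976. These are correlations across segments, which are not independent replicates, and the 8 libraries share their annotation and mapping. Libraries of the same genotype still differed beyond counting error, with a chi-square per degree of freedom of 2.19 to 4.22 over the 90 segments.

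By family, the 9 Igkv6 segments held the most kappa counts, 14.1% ± 0.452 of light chain V counts in control and 13.8% ± 0.487 in 4A1 KO libraries (SD, n = 4). The 33 Igkv4 segments, the most numerous family, held 8.65, 7.22, 7.41 and 7.21% in control and 6.96, 6.27, 6.59 and 6.27% in 4A1 KO libraries. These shares did not overlap, while the summed Igkv4 levels, at 27.95 to 41.10 CPM and 22.97 to 28.06 CPM, overlapped slightly. Without the called segment Igkv4-55 the Igkv4 shares still did not overlap, at 6.61 to 8.12% and 5.94 to 6.34%. The 12 Igkv8 segments held 7.87, 6.98, 7.51 and 7.43% in control and 6.42, 6.44, 6.57 and 6.94% in 4A1 KO libraries, again without overlap and lower in 4A1 KO. This separation rested on Igkv8-30, which is described below: without it the other 11 held 6.10 to 7.10% in control and 5.81 to 6.33% in 4A1 KO libraries, which overlapped. The 13 Igkv1 segments went the other way, with 9.28, 9.22, 8.16 and 8.65% in control and 9.58, 9.54, 9.51 and 9.35% in 4A1 KO libraries, every one higher. Summed Igkv1 levels overlapped, at 33.55 to 44.07 CPM in control and 34.27 to 41.36 CPM in 4A1 KO libraries. Of 23 families, with each lambda segment counted as a family, Igkv4, Igkv8 and Igkv1 were the 3 whose shares did not overlap. Of these, 2 were lower and 1 higher in 4A1 KO, and no test was run on families. Among all genes tested, 19.6% had every 4A1 KO library below every control library, in level and not in share. The 3 families are therefore not set apart by the lack of overlap. Shares sum to a fixed total, so a lower share of some families raises that of others. Summed levels of Igkv13, a family of 18 of which 2 were tested, were 6.45 to 9.07 CPM in control and 5.28 to 6.15 CPM in 4A1 KO libraries, while its shares, at 1.49 to 2.16% and 1.34 to 1.58%, overlapped.

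Kappa segments join either by deletion or by inversion of the DNA between V and J, according to their orientation. The 75 kappa segments that lie in the same orientation as Igkj1, the first J segment, held 42.9% ± 0.640 of light chain V counts in control and 43.1% ± 1.11 in 4A1 KO libraries. The 85 in the opposite orientation held 41.5% ± 1.21 and 40.4% ± 0.754. Usage was lowest in the middle of the locus. The 49 segments that lie 800 to 1600 kb from Igkj1 held 14.5% ± 0.435 in control, against 30.6% ± 1.16 for the 39 segments under 800 kb, 16.9% ± 1.06 for the 38 at 1600 to 2400 kb and 22.4% ± 0.896 for the 34 beyond. Mean share did not follow distance in a straight line over the 87 kappa segments tested, with Pearson's r of −0.02 and Spearman's rho of −0.11, given as a description.

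**Figure D2:**
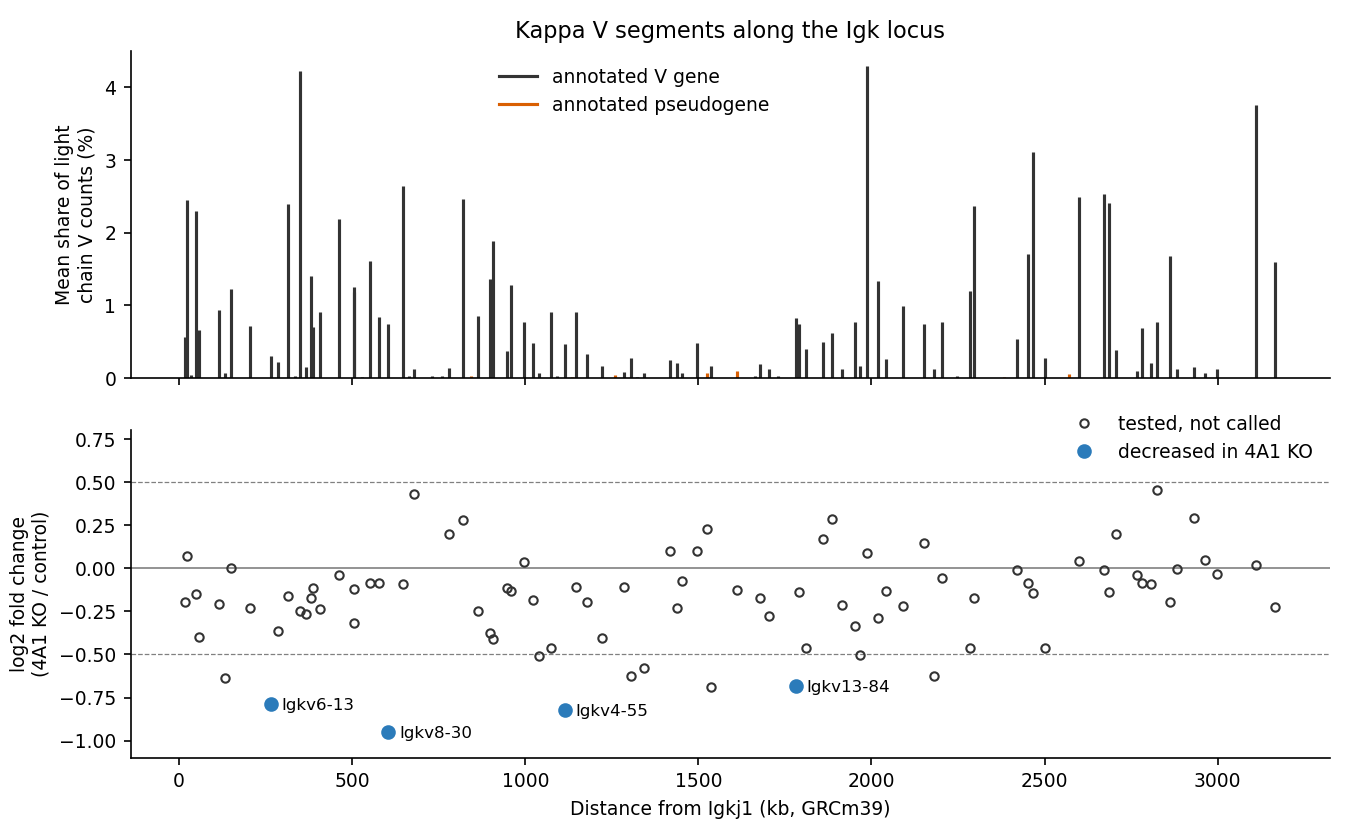
Kappa segments by distance from Igkj1 (kb, horizontal axis). The upper plot shows each segment's mean share of light chain V counts (%) over 8 libraries, with annotated pseudogenes in orange, and the lower plot the log2 fold change (4A1 KO over control, n = 3 per genotype) of the 87 kappa segments tested, with dashed lines at 0.5 and −0.5; the 4 decreased segments are filled.

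Kappa and lambda usage were compared between genotypes to see whether loss of EIF4A1 went with a shift from either light chain to the other. The lambda share of light chain V counts was 15.3, 16.5, 14.1 and 16.6% in control and 16.0, 16.8, 17.9 and 15.2% in 4A1 KO libraries. The groups overlapped, with a difference of 0.875 percentage points (p = 0.343, exact permutation test, two-sided, 4 against 4; 0.411 after Benjamini-Hochberg adjustment over 6 such values). The share was higher in 4A1 KO in 3 of 4 same-numbered pairs and lower in pair 4. The difference ran from −0.10 points without pair 3 to 1.63 points without pair 4. On the per-length scale of TPM, the summed level was 2251 ± 162 in control and 1995 ± 115 in 4A1 KO for kappa V and 362 ± 40.2 and 341 ± 33.7 for lambda V (SD, n = 4).

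Summed kappa V was at 403, 398, 361 and 324 CPM in control and 338, 361, 317 and 311 CPM in 4A1 KO libraries. Each 4A1 KO library was below the control library of the same number, but the groups overlapped, and the log2 ratio of −0.16 had p = 0.114 (exact permutation test, two-sided; 0.171 after adjustment over the 6 values). This test and the others on single values per library did not use the pairing by batch and sex, and sign flips within the 4 pairs cannot give a p below 0.125, which summed kappa V reached. Control libraries of batch A were higher than those of batch B. Summed lambda V was at 72.5, 78.4, 59.4 and 64.3 CPM in control and 64.4, 72.9, 69.3 and 55.6 CPM in 4A1 KO libraries, a log2 ratio of −0.07 (p = 0.686 before and after adjustment, exact permutation test, two-sided).

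The spread of usage over kappa segments did separate the genotypes, by a small amount. It was measured as the effective number of segments, the exponential of the Shannon entropy of their shares, which equals the number of segments if all are used equally. It was 57.6, 57.5, 56.9 and 57.8 in control and 55.7, 55.4, 55.5 and 55.3 in 4A1 KO libraries, so the genotypes did not overlap. The difference was −1.97 segments, with p = 0.0286, the smallest that 4 against 4 allows (exact permutation test, two-sided), and 0.0571 after adjustment over the 6 values. Light chain V counts per library were also lower in 4A1 KO libraries, at 12735 to 16716 against 16897 to 19246, and with a correction of the entropy for depth the difference was −1.94. Within each batch and each sex the 4A1 KO value was the lower.

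**Figure D3:**
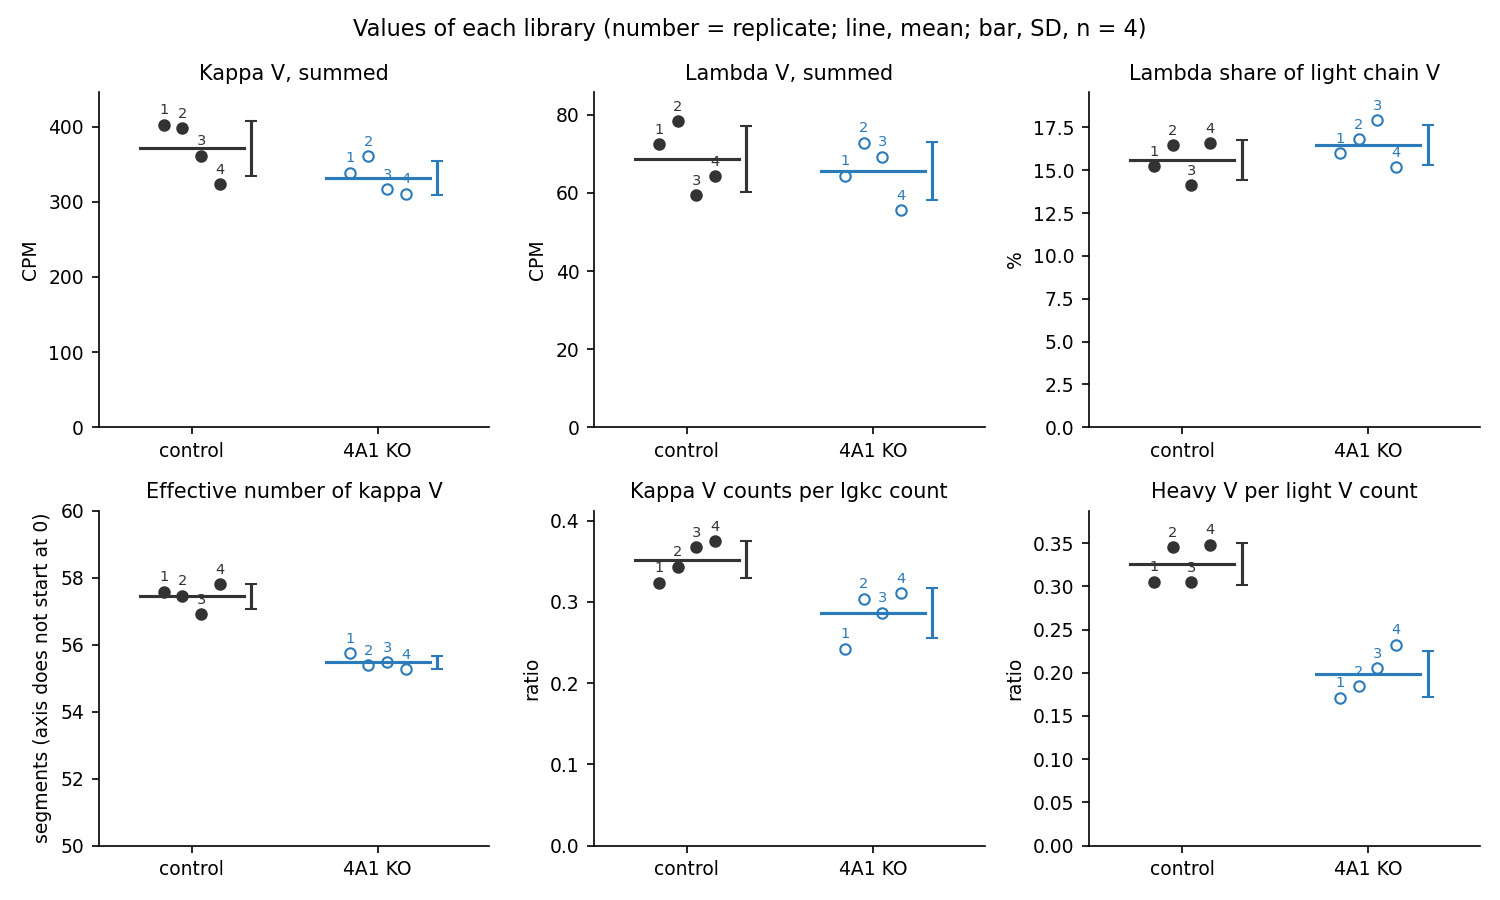
Values of each library in 6 panels, control (filled) and 4A1 KO (open), with the replicate number at each point, the mean as a line and the SD (n = 4) as a bar. The panels show summed kappa V and lambda V levels (CPM), the lambda share (%), the effective number of kappa segments, and the count ratios of kappa V to Igkc and of heavy to light chain V; the last 3 separate the genotypes without overlap, and the axis of the effective number runs from 50 to 60, not from 0.

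Individual segments were then tested between genotypes with edgeR's quasi-likelihood test on all 14218 genes that passed the filter, and a gene was called where the Benjamini-Hochberg adjusted p was below 0.05 and the log2 fold change exceeded 0.5 in size. Of the 90 light chain V segments, 4 decreased in 4A1 KO (4.44%) and 0 increased, while 13.7% of all genes tested decreased, 11.6% increased and 25.3% were called either way. The share called was below this background, so the 4 calls are values of single segments and not a result about light chain segments as a group. At an unadjusted p under 0.05 there were 15 of 90 segments, against 8289 of 14218 genes. The adjusted p of 10 segments was under 0.05, all with lower values in 4A1 KO (11.1%, against 26.7% of all genes). Over the 8 libraries, the highest 4A1 KO value was below the lowest control value for 11 of 90 segments (12.2%, against 19.6% of all genes). The reverse held for 0 segments, which is given without the share of all genes and cannot be read against it. When all 8 libraries were fitted, 7 segments decreased (7.78%), against 14.2% of all genes.

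Igkv8-30 had the lowest fold change of the 90. It stood at 3.67, 4.18, 3.92 and 4.45 CPM in control libraries 1 to 4 and at 2.47, 2.15, 2.1 and 2.24 CPM in 4A1 KO libraries, with no overlap. Its log2 fold change was −0.95 (SE 0.14, adjusted p = 5.65e-04, edgeR's quasi-likelihood test), from 4.18 ± 0.266 to 2.16 ± 0.0732 CPM (SD, n = 3). The gene lies at chr6:70094045-70094604 on the minus strand, opposite in orientation to Igkj1 and 605 kb from it. Of its 50-base windows 19.1% occur in another light chain V row, and reads from these may be split. The recombination signal of Igkv8-30 is found at 7 members, of which 5 were tested and Igkv8-30 alone was called. The log2 fold changes of the others were −0.09 for Igkv6-32 (SE 0.12, adjusted p = 0.567), −0.25 for Igkv6-17 (SE 0.09, adjusted p = 0.0391) and, in its own family, −0.09 for Igkv8-28 (SE 0.14, adjusted p = 0.628) and −0.17 for Igkv8-19 (SE 0.12, adjusted p = 0.244). Igkv7-33 and Igkv8-16 did not pass the filter. These differences from Igkv8-30 were not tested.

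Igkv13-84 was at 4.05, 4.92, 4.43 and 3.65 CPM in control and 2.88, 3.14, 2.34 and 2.61 CPM in 4A1 KO libraries. Again no 4A1 KO library reached the lowest control library. The log2 fold change was −0.68 (SE 0.15, adjusted p = 0.00423, edgeR's quasi-likelihood test). This segment lies at chr6:68916586-68917051, on the plus strand and 1782 kb from Igkj1, and 48.3% of its 50-base windows occur in another light chain V row, so reads from it and its relatives may be split.

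Igkv6-13, at chr6:70434485-70435020 on the minus strand, was at 1.47, 1.76, 1.35 and 1.54 CPM in control and 1.30, 1.12, 0.863 and 0.724 CPM in 4A1 KO libraries. The groups did not overlap, although 4A1 KO 1 lay just below control 3. Its log2 fold change was −0.79 (SE 0.21, adjusted p = 0.0128, edgeR's quasi-likelihood test), and the call was lost with DESeq2 (−0.80, adjusted p = 0.117) and without replicate 4 (−0.65, adjusted p = 0.0749). It rests on 31 to 71 counts per library. Of the segment's 50-base windows 31.9% occur in another member.

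Igkv4-55, at chr6:69584259-69584812 on the minus strand, was at 2.50, 2.87, 2.04 and 1.90 CPM in control and 2.53, 0.908, 1.73 and 1.21 CPM in 4A1 KO libraries. Replicate 1, which the test left out, was as high in 4A1 KO as in control, and the groups overlapped over 8 libraries. The log2 fold change was −0.82 (SE 0.26, adjusted p = 0.0272, edgeR's quasi-likelihood test) in the 6 libraries, −0.59 (adjusted p = 0.0587) in all 8 and −0.44 (adjusted p = 0.155) without replicate 2. The call was also lost with DESeq2 (−0.84, adjusted p = 0.0640) and with no replicate block (−0.82, adjusted p = 0.0540), at about the same fold change. Of its 50-base windows 53.3% occur in another member.

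**Figure D4:**
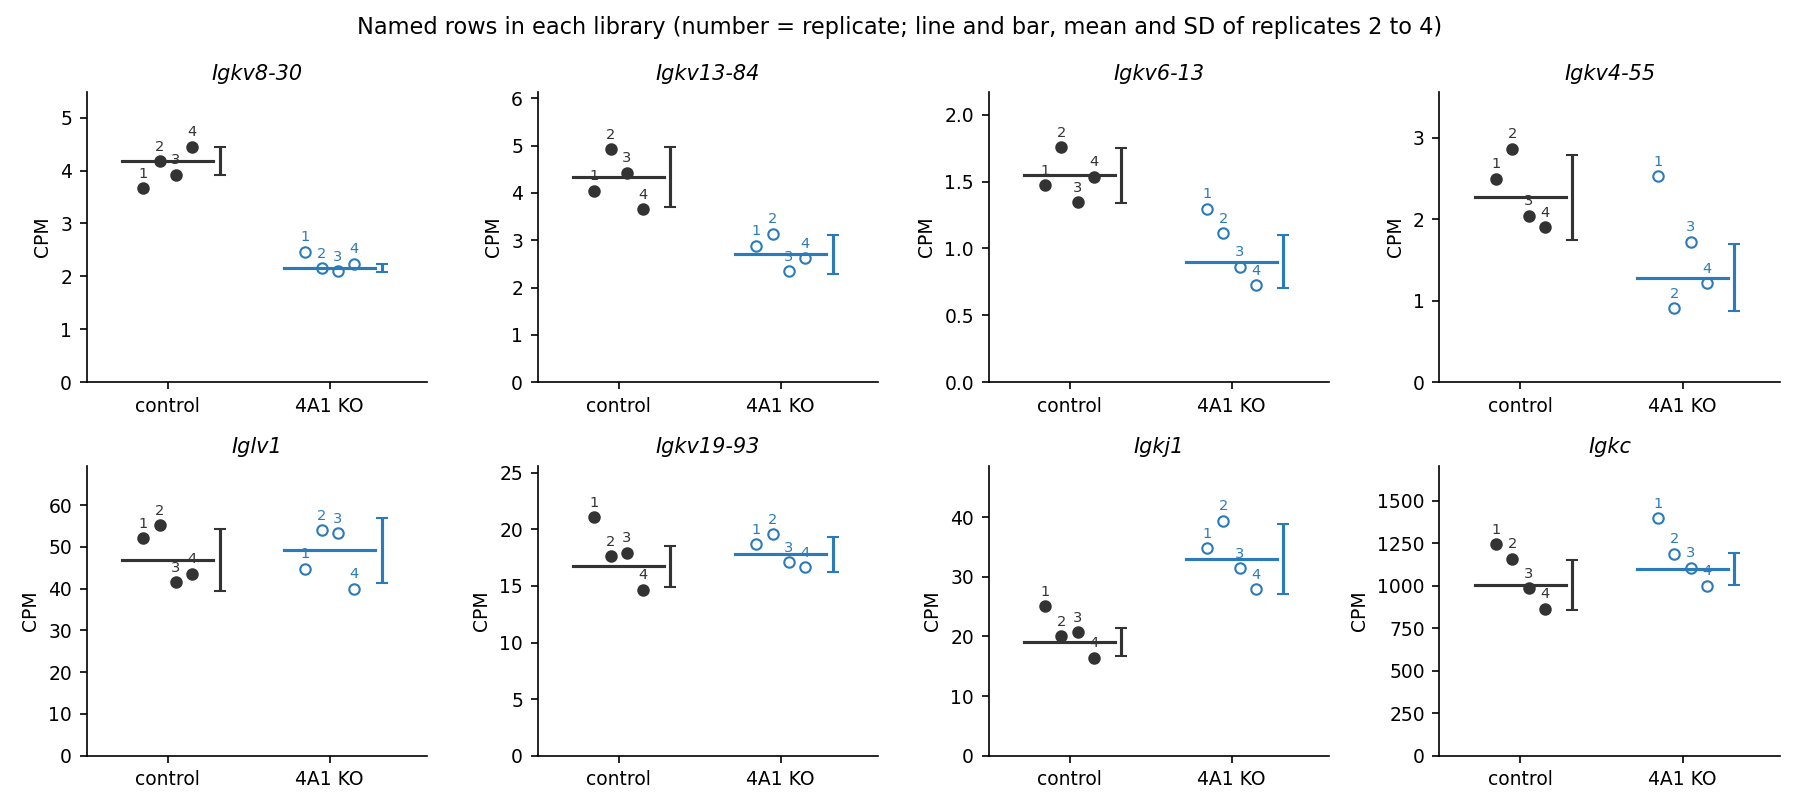
Level (CPM, from 0) in each library of the 4 decreased segments, the lambda and kappa segments with the highest mean share (Iglv1 and Igkv19-93), Igkj1 and Igkc, with control filled, 4A1 KO open and the replicate number at each point. Lines and bars are the mean and SD of replicates 2 to 4; Igkv8-30 and Igkv13-84 are lower and Igkj1 higher in every 4A1 KO than in every control library.

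The 10 most used segments were not called. Iglv1 was at 52.1, 55.2, 41.6 and 43.5 CPM in control and 44.8, 54.0, 53.3 and 40.0 CPM in 4A1 KO libraries, a log2 fold change of 0.07 (SE 0.09, adjusted p = 0.551, edgeR's quasi-likelihood test). Igkv19-93, the kappa segment with the highest mean share, was at 21.1, 17.6, 17.9 and 14.7 CPM in control and 18.7, 19.6, 17.1 and 16.6 CPM in 4A1 KO libraries. Its log2 fold change was 0.09 (SE 0.09). For both, the values of the genotypes overlapped. The log2 fold changes of the other 8 lay between −0.25 (Igkv6-17) and 0.28 (Igkv5-39, SE 0.12, adjusted p = 0.0781).

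Among the lambda segments Iglv3 was the lowest in 4A1 KO relative to control. It was at 9.94, 11.7, 10.2 and 12.0 CPM in control and 8.54, 10.5, 7.67 and 7.66 CPM in 4A1 KO libraries, which overlapped because of 4A1 KO 2. Its log2 fold change of −0.40 (SE 0.11, adjusted p = 0.0158, edgeR's quasi-likelihood test) was inside the fold threshold. It was −0.53 without replicate 2, where it was called, and −0.28 (adjusted p = 0.0890) without replicate 4. With no replicate block the adjusted p was 0.0846. Iglv2 was at 10.5, 11.5, 7.67 and 8.74 CPM in control and 11.1, 8.43, 8.28 and 7.94 CPM in 4A1 KO libraries, with a log2 fold change of −0.16 (SE 0.12, adjusted p = 0.298). Iglv1 and Iglv2 share 22.2% and 24.0% of their 50-base windows with another member, and Iglv3 none. How the counting treated reads that map to several places is not given in the sources used here.

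Over the 90 segments, log2 fold changes ran from −0.95 to 0.46 with a median of −0.15 (interquartile range −0.31 to −0.02), and 70 were below 0 (77.8%, against 49.4% of all genes, whose median was 0.01). The median of the segments within each same-numbered pair was −0.16, −0.19 and −0.13 for pairs 2, 3 and 4. Scaled to the light chain V total of each library, a usage scale, the median was −0.03 and the median of all genes moved from 0.01 to 0.12. On that scale the same 4 segments were called lower and Igkv14-126 higher. Igkv14-126 was at 2.57, 3.83, 2.41 and 2.41 CPM in control and 2.63, 4.64, 2.66 and 4.58 CPM in 4A1 KO libraries, with 4A1 KO 2 and 4 high.

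Fold changes were also described by features of the segments. The median log2 fold change was −0.16 over the 65 tested V genes with an octamer and −0.12 over the 23 without, and each set held 2 of the 4 decreased segments. Summed levels gave the other order, with log2 ratios over 8 libraries of −0.13 with and −0.19 without an octamer. V genes without an octamer held 28.90, 28.71, 28.73 and 28.20% of light chain V counts in control and 28.14, 27.97, 27.08 and 28.03% in 4A1 KO libraries. The lowest control and highest 4A1 KO values nearly met, and without Igkv8-30 the ranges, 27.05 to 28.12% and 26.54 to 27.52%, overlapped. It was −0.17 over the 52 kappa segments opposite to Igkj1 in orientation, with 3 decreased, and −0.13 over the 35 in the same orientation, with 1 decreased. By distance from Igkj1, it was −0.17 under 800 kb, −0.20 from 800 to 1600 kb, −0.19 from 1600 to 2400 kb and −0.03 beyond. Across the 87 kappa segments, fold change and distance had Pearson's r of 0.24 and Spearman's rho of 0.26. These are descriptions, since neighbouring segments share sequence.

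The constant and joining rows of the same loci were mixed in direction. Igkc, the kappa constant exon, was at 1244, 1159, 983 and 865 CPM in control and 1395, 1188, 1105 and 1001 CPM in 4A1 KO libraries. The groups overlapped, each 4A1 KO library was above the control library of its number, and the log2 fold change was 0.14 (SE 0.05, adjusted p = 0.0370, edgeR's quasi-likelihood test), inside the fold threshold. Kappa V counts per Igkc count were 0.324, 0.343, 0.367 and 0.374 in control and 0.243, 0.304, 0.287 and 0.311 in 4A1 KO libraries. The groups did not overlap, and the log2 ratio was −0.30 with p = 0.0286, the smallest that 4 against 4 allows (exact permutation test, two-sided), and 0.0571 after adjustment over the 6 values. The 4A1 KO value was lower in all 4 pairs, and thus within each batch.

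Igkj1 rose. It was at 25.1, 20.1, 20.7 and 16.4 CPM in control and 34.8, 39.4, 31.4 and 27.9 CPM in 4A1 KO libraries, without overlap, a log2 fold change of 0.78 (SE 0.09, adjusted p = 1.08e-04, edgeR's quasi-likelihood test). Igkj5 rose with a log2 fold change of 0.53 (SE 0.10, adjusted p = 0.00182), and this call was lost without replicate 3 (0.46). The other kappa J rows were not called, with log2 fold changes of 0.19 for Igkj2 (adjusted p = 0.110), 0.02 for Igkj4 (adjusted p = 0.880) and −0.30 for Igkj3 (adjusted p = 0.390), which was below 1 CPM in every library. Germline transcripts that run over the J segments before joining are known, and reads from these and from joined genes cannot be told apart in the J rows. Rag1 had at most 3 counts in a library and Rag2 had 0 in all 8, which allows up to 0.0949 CPM in the library with the fewest counts.

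On the lambda side, Iglc2 was at 207, 196, 137 and 107 CPM in control and 220, 229, 166 and 148 CPM in 4A1 KO libraries. Values were higher in batch A than in batch B and higher in 4A1 KO in each pair, and its log2 fold change was 0.33 (SE 0.06, adjusted p = 0.00153, edgeR's quasi-likelihood test). Of the lambda J rows, none was called. Their log2 fold changes were −0.18 for Iglj1 (adjusted p = 0.355), 0.38 for Iglj2 (adjusted p = 0.00496) and 0.13 for Iglj3 (adjusted p = 0.370). Iglj2 lies within the coordinates of the Iglc2 row, so the values of these 2 rows may not be separate. Iglc1 had a log2 fold change of −0.14 (SE 0.10, adjusted p = 0.263) and Iglc3 of 0.08 (SE 0.06, adjusted p = 0.307). Iglc1, Iglc2 and Iglc3 are closely related, and reads that they share could be counted on any of them. In TPM, the constant rows exceeded the V rows for both chains, with Igkc at 3808 ± 506 and Iglc1 to Iglc3 at 1107 ± 233 in control libraries (SD, n = 4), against 2251 and 362 TPM for kappa and lambda V. The joined V and J sequence is not contiguous in the reference and the authors' mapping allowed no soft-clipping, so reads over the joint may be missing from V and J rows, and how far this set the levels was not tested.

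Among 33 genes of the light chain loci, recombination and light chain transcription, 25 were tested, 2 increased (Igkj1 and Igkj5) and 2 decreased. That is 16.0% called and 8.00% in each direction, below the 25.3%, 11.6% and 13.7% of all genes. Pou2af1, the coactivator at the octamer, was at 461, 497, 516 and 552 CPM in control and 244, 255, 230 and 320 CPM in 4A1 KO libraries, a log2 fold change of −0.97 (SE 0.07, adjusted p = 1.67e-05, edgeR's quasi-likelihood test). Ikzf1, which encodes the transcription factor Ikaros, fell with a log2 fold change of −0.67 (SE 0.05, adjusted p = 1.65e-05). Pou2f2, which encodes OCT2, had a log2 fold change of 0.16 (SE 0.07, adjusted p = 0.0737). Whether the lower Pou2af1 bears on the V rows was not tested.

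Heavy chain V segments, the rows most like the light chain V segments, were tested in the same fit. Of 78 tested, 48 decreased (61.5%, against 13.7% of all genes) and 1 increased, with a median log2 fold change of −0.83 and pair medians of −0.88, −0.69 and −0.66. The decreased segments numbered 24 of 73 with DESeq2 (32.9%, against 11.9% of all genes), with a median of −0.86. Without replicate 2 they numbered 30 of 78 (38.5%, against 11.8% of all genes), with a median of −0.80. For 47 of 78 (60.3%, against 19.6% of all genes) the genotypes did not overlap, with 4A1 KO below. Heavy chain V counts per light chain V count were 0.306, 0.345, 0.305 and 0.348 in control and 0.171, 0.184, 0.205 and 0.232 in 4A1 KO libraries. This ratio did not overlap between genotypes and its log2 ratio was −0.72, with p = 0.0286, the smallest that 4 against 4 allows (exact permutation test, two-sided), and 0.0571 after adjustment over the 6 values. Ighm, the constant gene of IgM, fell with a log2 fold change of −0.57 (SE 0.06, adjusted p = 5.60e-05, edgeR's quasi-likelihood test). Ighd, the constant gene of IgD, was higher in 4A1 KO, with a log2 fold change of 0.40 (SE 0.06, adjusted p = 4.60e-04), inside the fold threshold.

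Some genes of antibody-secreting and of marginal zone B cells also changed, where 13.7% of all genes decreased and 11.6% increased. Of 8 plasma cell markers tested, 5 decreased and 0 increased, and the list summed to 937 to 1331 CPM in control and 712 to 918 CPM in 4A1 KO libraries. Of 6 marginal zone markers, 4 decreased and 1 increased, and they summed to 142.5 to 233.8 CPM and 112.4 to 134.6 CPM. Their part in the light and heavy chain values was not tested.

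**Figure D5:**
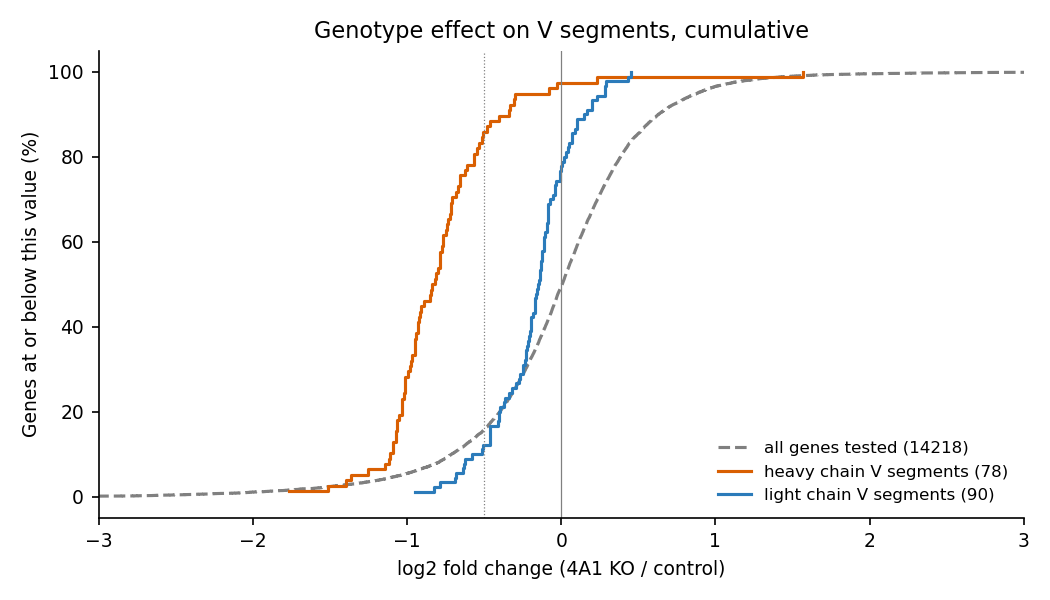
Cumulative share of genes (%, vertical axis) at or below each log2 fold change (4A1 KO over control, horizontal axis; n = 3 per genotype) for 90 light chain V segments, 78 heavy chain V segments and all 14218 genes tested. The light chain curve crosses its middle at −0.15 and the heavy chain curve at −0.83; the dotted line marks −0.5, and a few genes lie outside the axis.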

How the data were processed

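The authors trimmed 50-bp paired reads with Trim Galore 0.6.6, mapped them to GRCm39 with HISAT2 2.1.0 without soft-clipping or discordant pairs, and counted them with Seqmonk over merged isoforms of each gene on the opposing strand. The deposited counts are not normalized. The deposited TPM were calculated by the authors with StringTie 2.1.1.

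The counts were fitted with edgeR 4.0.16 under R 4.3.3 (filterByExpr by genotype, TMM, quasi-likelihood fit with batch, sex and genotype, two-sided, Benjamini-Hochberg adjustment over all genes). CPM are TMM-normalized. Batch and sex define the replicate number in the 6 libraries, so the fit is blocked on it. Same-numbered libraries deviated together from their genotype means, with r of 0.51, 0.50 and 0.37 across genes and −0.38 to −0.10 for other numbers. Pair medians used log2(CPM + 0.1). Single values were compared by exact permutation in Python 3.11.15 with scipy 1.17.1. Replicates are individual mice.

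The members, gene lists and tests were chosen with earlier results of these data known. The segments named are the 10 with the highest mean share, all lambda segments, and called segments of 1 CPM or more on average that moved one way in the 3 pairs; from the locus and regulator list, the constant genes, Rag1, Rag2, Pou2af1, Pou2f2 and the 3 smallest adjusted p. Others were chosen after their values were seen.

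All 163 members matched GENCODE M39 by identifier, and sequences were read from GRCm39. In simulated counts for the comparison of 6 libraries, edgeR recovered 181 of 193 changed genes among 14051 with 4 false calls. These counts cover all genes together, and recovery at the levels and fold changes of the light chain segments was not tested. DESeq2 1.42.0, other normalizations and filters, limma 3.58.1 on log2(TPM + 1), all 8 libraries, no replicate block and leaving out each replicate were alternatives. The ratio of heavy to light chain V counts and the depth correction of the entropy were added after the data were examined. Standard deviations are between libraries, and the floor of 3 counts covers counting error only.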

Additional observations from a re-analysis of the deposited data

Results flagged for a closer look

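Iglv2 in the 4A1 KO libraries was flagged because 4A1 KO 1, at 11.1 CPM, stood apart from the other 3, at 7.94 to 8.43 CPM. The gap was 0.845 of the range of the 4 values, just above the critical value for 4 samples. Among 60 groups of 4 examined, 1 was flagged, where chance gives about 3. Replicate 1 did not enter the test of Iglv2. The effect of genotype was also compared between sexes and between batches, and for 0 of 90 segments did the difference pass an adjusted p of 0.05 in edgeR's quasi-likelihood test, with 4 segments for sex and 1 for batch at an unadjusted p under 0.05.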

How the results depend on the processing

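The number of light chain V segments called, 4 of 90 in the report, was 2 of 85 with DESeq2 (adjusted over the genes it tested). It was 2 of 124 on TPM without a filter and 7 of 100 on TPM with a pseudocount of 0.1. In all 8 libraries it was 7 of 90, and it was 4 to 6 when each replicate was left out. Over all genes, 11.9% decreased with DESeq2, 5.14% on TPM without a filter and 13.2% with the pseudocount of 0.1. The share was 14.2% in all 8 libraries and 11.8% to 14.6% when each replicate was left out, against 13.7% in the report. Igkv8-30 and Igkv13-84 were called under DESeq2 too. The 7 of all 8 libraries were Igkv1-99, Igkv13-84, Igkv2-112, Igkv4-53, Igkv4-61, Igkv6-13 and Igkv8-30. Without a replicate block 3 of 90 segments were called, and 42 heavy chain V segments in place of 49. Over all genes, 21.1% were called without the block, against 25.3% with it. The pairing changed no other call among the segments and genes named than that of Igkv4-55. Some adjusted p values under 0.05 of changes inside the fold threshold did depend on it. Without the block they were 0.339 for Iglc2, 0.395 for Igkc and 0.270 for Iglj2 (edgeR's quasi-likelihood test). For Iglv3 and Igkv6-17 they were 0.0846 and 0.174. With the replicate block as sign flips within the 4 pairs, added after the data were examined, the 4 single values that were lower in 4A1 KO in every pair had p = 0.125 and the lambda level and share p = 0.625 (exact permutation tests, two-sided); 0.125 is the smallest p that 4 pairs give, so none could pass. Heavy chain V calls were 24 of 73 with DESeq2 and 30 to 51 when each replicate was left out, 30 of 78 without replicate 2. The median log2 fold change of −0.15 was −0.034 on the scale of the light chain V total and −0.17 to −0.14 when each replicate was left out. On that scale, calls over all genes were 2368 increased and 1525 decreased, against 1647 and 1949. On TPM without a filter, the log2 fold change was −0.58 for Igkv6-13 (adjusted p = 0.0584, limma) and −0.74 for Igkv4-55 (adjusted p = 0.123, limma). Where a call was lost, the cause was not tested. The effective number of kappa segments was lower in 4A1 KO by every alternative run, from −2.15 to −1.70, and kappa V counts per Igkc count from −0.35 to −0.27 on the log2 scale when each replicate was left out. Segments with few counts and those that share sequence limit what can be seen.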
